A study of Mus musculus with 42 samples.

Results

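Glucocorticoid response was read from 8 genes of the muscle transcriptome: the receptor gene Nr3c1 and 7 genes known to respond to the activated receptor, Fkbp5, Tsc22d3, Klf15, Klf9, Zbtb16, Ddit4 and Sgk1. The 8 genes were chosen by symbol, and all 8 were found among the 13809 genes measured and passed the filter on low values in both sets. The data are RNAseq of tibialis anterior (TA) muscle, the fast muscle at the front of the shin, from male C57BL/6J mice aged 4 months, with 42 libraries in 11 groups. Set 1 (22 libraries) holds WT, Sesn1SkM-Tg and Sesn2SkM-Tg mice, basal or immobilized. Set 2 (20 libraries) holds WT and Sesn1KO mice, basal or immobilized, and WT mice with a denervated limb. Groups have 4 libraries, except that immobilized muscle of WT mice in set 1 and of Sesn1SkM-Tg mice has 3. Sesn1SkM-Tg mice carry human Sesn1 under the MCK promoter, and Sesn2SkM-Tg mice carry human Sesn2 under a Tet-regulated promoter switched on by an MCK-driven transactivator, so that both transgenes are driven by a muscle promoter. Sesn1KO mice carry a Sesn1 knockout and were compared with normal WT mice. For the transgenic lines the paper names littermates without a transgene as controls, and it also describes every WT group as littermates of its line. Set 1 holds a single WT group for both transgenic lines, and the labels do not say from which line it came. In immobilization 1 hindlimb was held still with a rigid support, in denervation a piece of the sciatic nerve was cut out, and in both the muscle was taken after 3 days, whereas basal muscle came from mice with neither procedure. The labels do not say that the libraries of a group come from separate mice, so the p-values measure only the spread between libraries, which may be partly technical. The comparisons address whether a stress hormone response accompanies muscle disuse and whether sestrins alter it.

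Glucocorticoids enter the cell, bind the receptor encoded by Nr3c1 and release it from a chaperone complex of heat shock proteins, after which it moves to the nucleus and binds palindromic response elements in DNA. In muscle, glucocorticoid excess is a classical cause of atrophy: it raises protein breakdown and amino acid release and restrains growth signalling. Several response genes feed back on the pathway, such as Fkbp5, whose product lowers the affinity of the receptor for hormone, while others carry out the response, such as Klf15, which drives amino acid catabolism, and Ddit4 (REDD1), which restrains mTORC1.

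Values are the deposited normalized counts, which lie close to counts scaled to library size, are not divided by gene length and are comparable within a set. A gene was called higher or lower at an adjusted p under 0.05 and a log2 fold change of at least 0.25 in size. Adjusted p-values are from limma with Benjamini-Hochberg adjustment over all genes tested, and fold changes are on the log2(value + 1) scale, given with their SE. Library sums ran from 722430 to 1276769, with the denervated libraries among the lowest sums, and the number of reads is unknown. A pair of basal libraries of set 1 stood apart from their groups, replicate 4 of the WT and replicate 2 of the Sesn2SkM-Tg muscle, with mean correlations of 0.964 and 0.966 to the other libraries of their groups and the highest library sums (1159418 and 1276769). Immobilized Sesn1SkM-Tg replicates 1 and 3 had mean correlations of 0.968 and 0.966 as well. Calls of the 8 genes that were gained or lost without that pair of basal libraries are given with and without them. The row of Sesn1 ranged from 8.41 to 10 in basal Sesn1KO muscle against 22.5 to 29.7 in basal WT muscle of set 2, and from 41.6 to 77.6 in basal Sesn1SkM-Tg against 15.0 to 22.1 in WT muscle of set 1. In immobilized Sesn1KO muscle Sesn1 still reached 19.4 to 37.3, overlapping the 30.7 to 53.1 of immobilized WT muscle. Sesn2 ranged from 6.54 to 13 in basal Sesn2SkM-Tg against 2.18 to 3.39 in WT muscle. Summed over 8 markers of fast fibres, the libraries reached 59800 to 182000, against 2.03 to 82.0 over 5 markers of slow fibres.

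Sequence elements just upstream of the genes differed between them. Windows of 250 bases before an annotated start were taken from RefSeq (GRCm38.p6), which gave 13 windows for 6 of the genes. Sgk1 and Tsc22d3 have several of these windows each, so more sequence was searched for them than for the others. No window was used for Nr3c1 or Zbtb16. The full glucocorticoid response element, searched as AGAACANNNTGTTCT, was found in 3 of 32851 windows of all genes (0.00913%), and 1 of the 3 belongs to Sgk1. It lies at chr10:21993701-21993715, 189 bases before the annotated start at position 21993890. A shorter form, GNACANNNTGTNC, was present in 0.387% of windows and again, among these genes, in that Sgk1 window only. The receptor half-site AGAACA, read on both strands and contained in the full element, was far more common (16.1% of windows) and occurred in windows of Sgk1 and Tsc22d3. The E-box CACGTG, bound by clock and MYC proteins, occurred in 6.02% of windows and in those of Fkbp5, Klf15 and Sgk1. The forkhead motif TGTTTAC occurred in 3.17% of windows and in that of Klf9. The full cyclic AMP element TGACGTCA (1.55% of windows) was in none of the 13, and no match says only that these letters are absent from a window. Windows of 5 genes follow, 5′ to 3′ on the gene's strand, to show the elements beside their surroundings. Capitals mark the response element or half-site, the E-box and the forkhead motif, an E-box and a half-site overlap near the 5′ end of the Sgk1 window, and the Tsc22d3 window stops after 113 bases, where an annotated exon begins.
Sgk1, chr10:21993640-21993889, plus strand: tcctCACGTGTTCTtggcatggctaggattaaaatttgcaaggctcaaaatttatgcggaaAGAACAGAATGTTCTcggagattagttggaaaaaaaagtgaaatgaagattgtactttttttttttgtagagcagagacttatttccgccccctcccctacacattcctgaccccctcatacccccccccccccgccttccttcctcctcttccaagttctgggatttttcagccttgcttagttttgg
Tsc22d3, chrX:140600660-140600772, minus strand: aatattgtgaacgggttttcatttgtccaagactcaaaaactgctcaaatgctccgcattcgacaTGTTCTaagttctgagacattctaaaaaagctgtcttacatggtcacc
Klf15, chr6:90462326-90462575, plus strand: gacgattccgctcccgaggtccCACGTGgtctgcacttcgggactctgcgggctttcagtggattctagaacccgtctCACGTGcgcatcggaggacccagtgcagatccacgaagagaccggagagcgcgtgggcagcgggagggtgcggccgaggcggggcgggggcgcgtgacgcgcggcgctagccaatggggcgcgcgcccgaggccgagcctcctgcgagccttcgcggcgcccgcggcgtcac
Fkbp5, chr17:28486150-28486399, minus strand: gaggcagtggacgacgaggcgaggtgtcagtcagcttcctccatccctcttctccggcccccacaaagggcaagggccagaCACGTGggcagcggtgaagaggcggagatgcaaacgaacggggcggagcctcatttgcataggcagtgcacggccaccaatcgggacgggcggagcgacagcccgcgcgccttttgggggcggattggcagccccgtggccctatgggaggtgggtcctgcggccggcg
Klf9, chr19:23140976-23141225, plus strand: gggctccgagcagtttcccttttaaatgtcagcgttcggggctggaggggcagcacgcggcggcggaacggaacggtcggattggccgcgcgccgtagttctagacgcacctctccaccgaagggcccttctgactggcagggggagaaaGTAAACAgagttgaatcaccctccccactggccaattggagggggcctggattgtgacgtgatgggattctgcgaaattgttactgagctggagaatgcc

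On GRCm38 (GENCODE vM21) the genes lie on 7 chromosomes: Nr3c1 at chr18:39410545-39519421, Fkbp5 at chr17:28399094-28517527, Zbtb16 at chr9:48654297-48836222, Tsc22d3 at chrX:140539528-140600659 and Ddit4 at chr10:59949669-59951834, all on the minus strand, and Klf15 at chr6:90462576-90475238, Klf9 at chr19:23141226-23168134 and Sgk1 at chr10:21882184-21999903, all on the plus strand. Values are given per gene, so transcripts from different starts were not told apart.

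By gene length, basal WT muscle ordered the 8 genes into tiers. Per kilobase of exon, Sgk1 and Tsc22d3 were highest in set 1, at 34.4 ± 2.45 and 34.9 ± 1.48 (mean ± SD, n = 4), and did not differ beyond their spread. Klf9 followed at 23.3 ± 4.33 per kilobase. Klf15 (13.2 ± 3.37), Nr3c1 (11.3 ± 4.05) and Zbtb16 (11.2 ± 2.06) formed a middle tier within each other's spread. Ddit4 (2.24 ± 1.07) and Fkbp5 (1.95 ± 0.339) were lowest, near the median of all genes, with 48.9% and 46.0% of genes below them. Set 2 gave the same tiers, with Sgk1 at 36.3 ± 7.10 and Tsc22d3 at 29.8 ± 4.85 on top and Ddit4 at 3.68 ± 1.12 and Fkbp5 at 3.02 ± 0.83 at the bottom (n = 4).

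**Figure D1:**
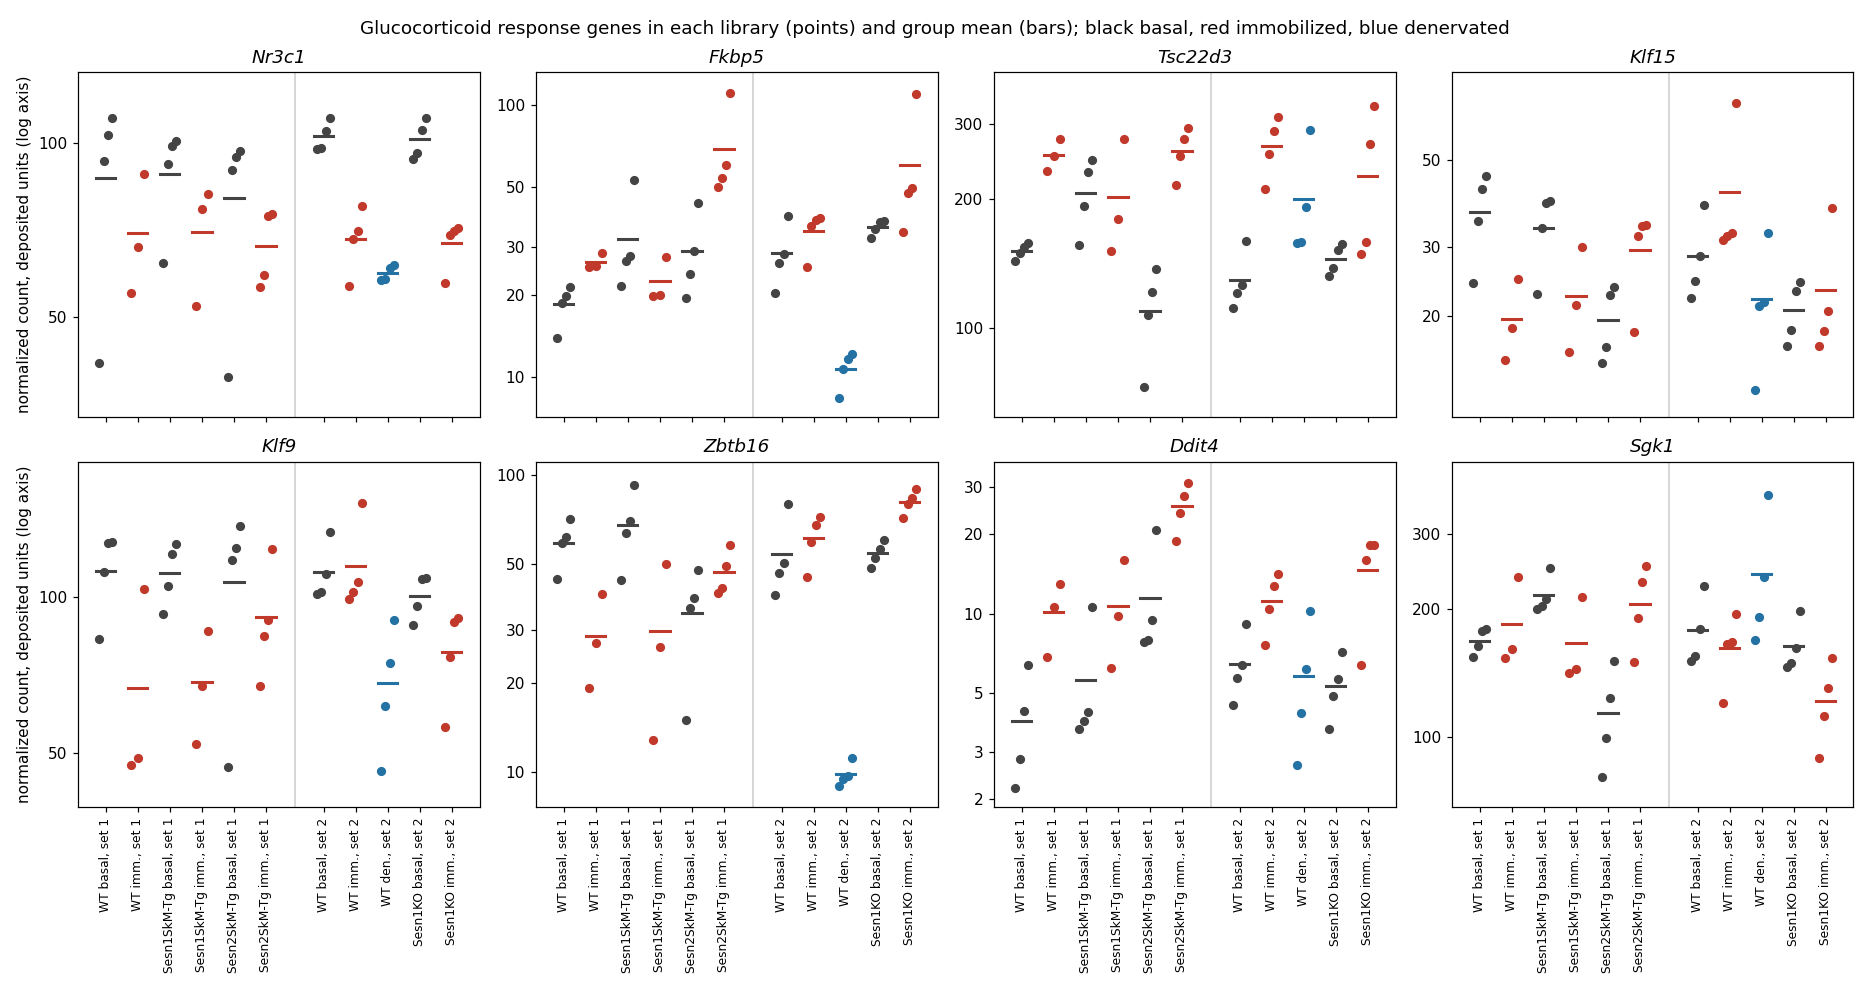
Normalized count of each gene in each of the 42 libraries (points, log axis) with the group mean (bar), set 1 left and set 2 right of the grey line. Denervated muscle sits apart for Zbtb16 (8.95 to 11.2) and Fkbp5 (8.37 to 12.2), below every other library of set 2 for both genes.

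Immobilization did not move the 8 genes as 1 block. In WT muscle of set 1, 2 of 8 were higher and 2 lower than in basal muscle, where 29.3% of all genes tested were called. In WT muscle of set 2, 1 was higher and 1 lower, against 33.9% of all genes. Sesn2SkM-Tg muscle had 4 of 8 higher and none lower (30.7% of all genes called, 15% higher), and Sesn1KO muscle had 3 higher and 1 lower (37.1%). In Sesn1SkM-Tg muscle 1 of 8 was called, and it was lower (34.7%). After denervation 1 was higher and 4 were lower, in a comparison that called 55.5% of all genes. These shares lie near the background in most comparisons, so the count alone sets the genes apart from no other group. Their median log2 fold change was -0.07, -0.42, 0.71, 0.24, 0.34 and -0.56 in these comparisons in the order WT set 1, Sesn1SkM-Tg, Sesn2SkM-Tg, WT set 2, Sesn1KO and denervation, beside medians of all genes between -0.03 and 0.00. In the same order, 33.8%, 41.5%, 30.2%, 32.5%, 32.2% and 53.7% of all genes had no overlap between the groups compared. Statements below that values of a gene did not overlap are to be read beside these shares.

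**Figure D2:**
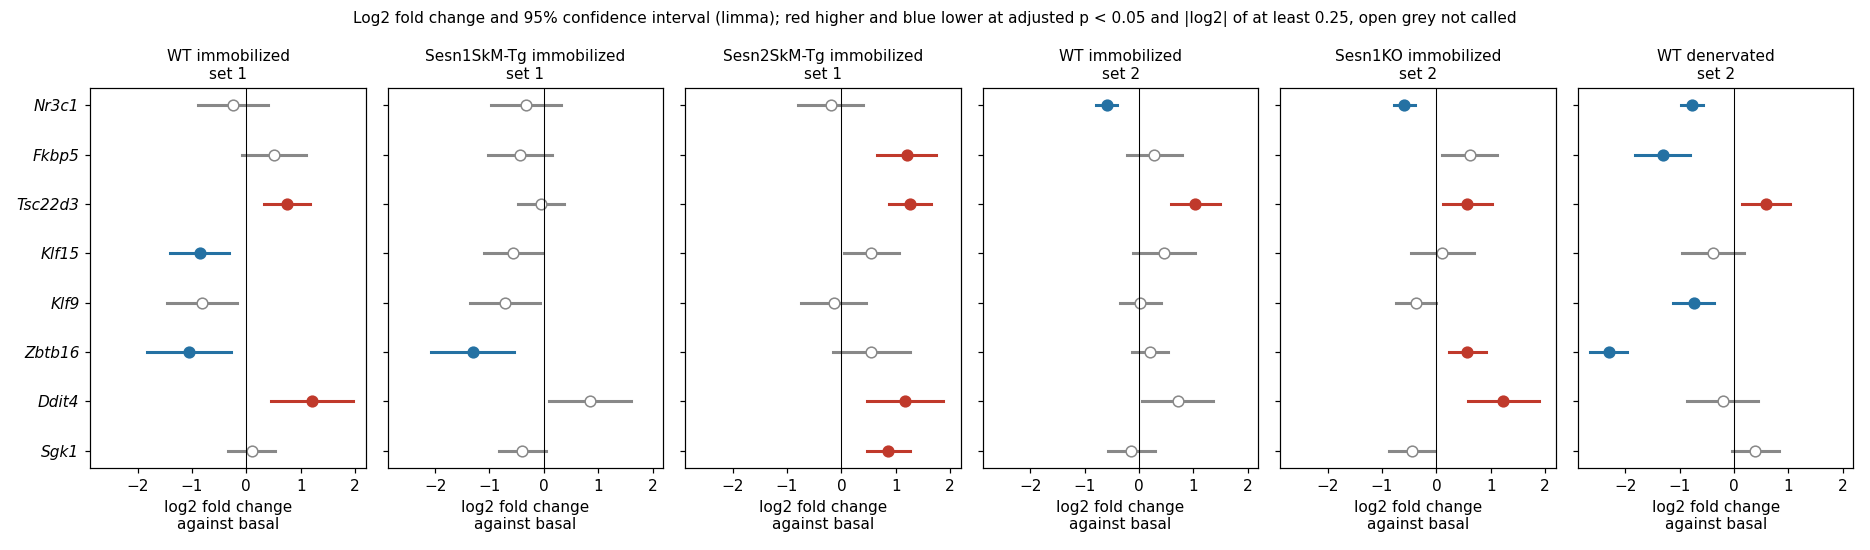
Log2 fold change against basal muscle of the same genotype and set for each gene, with 95% confidence intervals from limma. Filled red and blue points passed the test as higher or lower and open grey points did not. Tsc22d3 is red in every panel except Sesn1SkM-Tg, where its estimate is -0.06, and Zbtb16 ranges from -2.31 after denervation to 0.57 in immobilized Sesn1KO muscle.

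The receptor gene Nr3c1 fell in all disused muscles of set 2, with the smallest SE of the 8 genes. Basal WT muscle had values of 97.6, 105, 97.8 and 110.4, immobilized WT muscle 68.1, 70.2, 56.5 and 77.8, and denervated WT muscle 60.6, 61.5, 58.0 and 58.1. All basal values lay above all others, and the denervated values fell within the range of the immobilized ones. The log2 fold change was -0.59 (SE 0.094, adjusted p = 5.6e-05) after immobilization and -0.77 (SE 0.094, adjusted p = 5e-07) after denervation. Sesn1KO muscle gave 96.0, 105, 93.8 and 111 when basal and 69.2, 70.4, 71.3 and 57.1 when immobilized, again without overlap, with a log2 fold change of -0.59 (SE 0.094, adjusted p = 4.0e-05). The difference between the effects in Sesn1KO and WT muscle was -0.002 (95% interval -0.28 to 0.27). In set 1 the change did not pass the test in any genotype, with values in WT muscle of 103, 110.5, 93.1 and 41.6 when basal and 88.5, 55.0 and 66.1 when immobilized. The lowest of them, 41.6, belongs to the basal library that stood apart, as does the value of 39.3 among basal values of 89.8, 94.3 and 96.9 in Sesn2SkM-Tg muscle. Without those 2 libraries the fold change of Nr3c1 was -0.57 in WT (adjusted p = 0.03) and -0.50 in Sesn2SkM-Tg muscle (adjusted p = 0.036), both then called lower, against -0.25 and -0.20 with them.

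Fkbp5 encodes a co-chaperone of the receptor and is among the most sensitive reporters of glucocorticoid action in many tissues. It fell after denervation and was called higher after immobilization in 1 of 5 groups. Denervation lowered it 2.48-fold: basal values of 28.4, 26.3, 20.4 and 39.2 gave way to 11.7, 12.2, 10.7 and 8.37 (log2 fold change -1.31, SE 0.243, adjusted p = 1e-04), with no overlap. Immobilized WT muscle of the same set held 25.5, 38.5, 37.9 and 36.0, overlapping the basal values (0.28, SE 0.243, adjusted p = 0.40), so that denervated muscle lay 3.01-fold below immobilized muscle (adjusted p = 2.5e-05). In Sesn2SkM-Tg muscle Fkbp5 rose 2.30-fold with immobilization, from 19.5, 43.4, 23.9 and 29.1 to 60.2, 110.1, 54.0 and 50 (log2 fold change 1.2, SE 0.262, adjusted p = 0.0016), and the groups did not overlap. In WT muscle of set 1 it went from 21.4, 18.8, 14 and 19.9 to 28.7, 25.5 and 25.4. These did not overlap either, yet the change of 0.51 (SE 0.283) did not pass the test (adjusted p = 0.18). In Sesn1KO muscle 1 library of 109.6 stood over 34.1, 47.5 and 49.3, against basal values of 35.0, 37.2, 32.3 and 37.4, and the change of 0.61 (SE 0.243) missed the threshold at adjusted p = 0.054, passing without immobilized replicate 1 (0.83, adjusted p = 0.0091). Sesn1SkM-Tg muscle had 27.6, 20 and 19.8 when immobilized and 26.8, 27.8, 52.8 and 21.5 when basal (-0.44, SE 0.283, adjusted p = 0.24). With library sums scaled alike, Fkbp5 was also called higher in WT muscle of set 1 (0.836, adjusted p = 0.027). In Sesn1KO muscle the same scaling (0.719, adjusted p = 0.036) and median centring (0.655, adjusted p = 0.038) each gave a call.

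Tsc22d3 (GILZ), a leucine zipper protein that mediates anti-inflammatory effects of glucocorticoids, was the gene that rose most regularly. It was called higher in 5 of the 6 comparisons with basal muscle. In WT muscle of set 2 it went from 111, 126, 121 and 159.7 to 256, 311, 289 and 211 (log2 fold change 1.04, SE 0.216, adjusted p = 8.3e-04), and in WT muscle of set 1 from 158, 143, 154 and 150.0 to 276, 253 and 233 (0.74, SE 0.203, adjusted p = 0.0097). In both, every immobilized library was above every basal one. Sesn2SkM-Tg muscle showed the largest change, from 107, 72.6, 137 and 121 to 216, 277, 252 and 294, a rise of 2.41-fold (1.27, SE 0.188, adjusted p = 4.1e-05). Sesn1KO muscle was uneven: basal values of 152, 138, 132 and 157 were followed by 149, 331, 159 and 270.1, so that 2 immobilized libraries stood high and 2 at the basal level. That call (0.57, SE 0.216, adjusted p = 0.044) was lost without any 1 of 6 of the 8 libraries, reaching 0.36 (adjusted p = 0.19) without immobilized replicate 2 and 0.46 (adjusted p = 0.13) without immobilized replicate 4. Denervated muscle held 159, 158, 192 and 291 (0.59, SE 0.216, adjusted p = 0.025), with the highest basal value just above the lowest 2 of them. This call rested on single libraries too, with adjusted p = 0.12 without the denervated replicate 4, 0.071 without basal replicate 1 and 0.055 without basal replicate 3. Only Sesn1SkM-Tg muscle showed no rise that passed, with 277, 179.9 and 151 when immobilized and 232, 193, 247 and 157 when basal (-0.06, SE 0.203, adjusted p = 0.86), and the difference of its effect from that of WT muscle was -0.80 (95% interval -1.39 to -0.20, adjusted p = 1).

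Klf15, the transcription factor that links glucocorticoids to branched-chain amino acid breakdown, fell 1.81-fold in immobilized WT muscle of set 1. Its values were 34.9, 42.3, 24.4 and 45.6 when basal and 24.9, 18.7 and 15.5 when immobilized, overlapping by 1 library (log2 fold change -0.86, SE 0.260, adjusted p = 0.018), and the call was lost without immobilized replicate 2 (adjusted p = 0.051) or 3 (adjusted p = 0.11). In WT muscle of set 2 the basal values of 28.5, 22.2, 38.4 and 24.6 were followed by 31.2, 69.9, 31.9 and 32.5, which overlapped (0.47, SE 0.276, adjusted p = 0.20), with 1 library far above the others. The effect of immobilization on WT muscle differed between the sets for Klf15 (-1.32, SE 0.401, adjusted p = 0.04, in a comparison that called 6.2% of all genes), and with all libraries in the fit it passed for none of the other 7. The difference in Klf15 did not pass when any 1 of 9 libraries was left out, for example replicate 3 of the immobilized muscle of set 1 (-1.17, adjusted p = 0.14), or without the 2 basal libraries that stood apart (-1.21, adjusted p = 0.061). Without those 2 libraries the same test passed instead for Klf9 (-0.98, adjusted p = 0.043) and Zbtb16 (-1.23, adjusted p = 0.039), which with them had -0.85 (adjusted p = 0.17) and -1.26 (adjusted p = 0.063). Without immobilized replicate 1 of set 1 alone, Klf9 (-1.21, adjusted p = 0.038) and Zbtb16 (-1.52, adjusted p = 0.03) passed as well. Zbtb16 also passed without basal replicate 4 (-1.46, adjusted p = 0.03) or immobilized replicate 4 (-1.39, adjusted p = 0.042) of set 2. No other comparison with basal muscle passed for Klf15, denervation included, with 21.7, 13, 21.3 and 32.6 (-0.39, SE 0.276, adjusted p = 0.25). Sesn1SkM-Tg muscle (-0.57) was called lower without basal replicate 3 (-0.74, adjusted p = 0.039) or immobilized replicate 1 (-0.79, adjusted p = 0.035). Sesn2SkM-Tg muscle (0.55) was called higher without immobilized replicate 2 (0.76, adjusted p = 0.024). Scaling library sums alike also called Klf15 higher in Sesn2SkM-Tg muscle (0.85, adjusted p = 0.0051). That scaling took away the call in WT muscle of set 1 (-0.53, adjusted p = 0.089). Denervated muscle was below immobilized muscle (-0.85, SE 0.276, adjusted p = 0.018), a call that was lost without denervated replicate 2 (adjusted p = 0.085) or immobilized replicate 2 (adjusted p = 0.087).

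Klf9, a relative of Klf15 and a direct receptor target, fell 1.67-fold after denervation, from 101, 110.4, 102 and 134 to 61.5, 46.2, 74.5 and 90.2 with no overlap (log2 fold change -0.74, SE 0.179, adjusted p = 0.0014). Immobilized WT muscle of that set kept 102, 152, 98.8 and 107 (0.03, SE 0.179, adjusted p = 0.93), and denervated muscle was 1.7-fold below it (adjusted p = 0.0018). Scaling every library to the same sum took both calls away (-0.28, adjusted p = 0.21, and -0.43, adjusted p = 0.063). In set 1 the immobilized WT values of 104, 48.9 and 47.4 compared with 112, 127, 127 and 83.0 when basal gave -0.82 (SE 0.310), which missed the threshold at adjusted p = 0.05. It passed without the 2 basal libraries that stood apart (-0.96, adjusted p = 0.0058), and equally without immobilized replicate 1 (-1.19, adjusted p = 0.0092). Sesn1SkM-Tg muscle went from 126, 121, 105 and 92.5 to 85.7, 67.4 and 51.9, without overlap, and also missed the threshold (-0.71, SE 0.310, adjusted p = 0.08).

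Zbtb16 (PLZF), a transcriptional repressor strongly induced by glucocorticoids in many cell types, gave the largest single change. Denervation lowered it 4.94-fold, from 46.8, 50.5, 39.5 and 79.7 to 11.2, 9.46, 8.95 and 9.66 (log2 fold change -2.31, SE 0.162, adjusted p = 1.9e-10). The denervated values were the lowest 4 of the 20 libraries of set 2, and leaving out any 1 library kept the fold change between -2.44 and -2.11. Immobilized WT muscle of that set held 59.5, 67.8, 72.1 and 45.3 (0.20, SE 0.162, adjusted p = 0.36), 5.69-fold above denervated muscle (adjusted p = 3.2e-10). Immobilization lowered Zbtb16 in WT and Sesn1SkM-Tg muscle of set 1 and raised it in Sesn1KO muscle. WT muscle of set 1 went from 44.7, 59.0, 70.9 and 62.0 to 39.9, 19.2 and 27.3 (-1.06, SE 0.370, adjusted p = 0.036), with no overlap, and Sesn1SkM-Tg muscle from 63.7, 44.5, 92.5 and 70.3 to 50.2, 26.4 and 12.8 (-1.31, SE 0.370, adjusted p = 0.0095), overlapping by 1 library. The first call was lost without basal replicate 2, 3 or 4 or immobilized replicate 2 or 3 (the weakest -0.81, adjusted p = 0.17), and the second without immobilized replicate 3 (-0.83, adjusted p = 0.11). Quantile normalization (-0.96, adjusted p = 0.055) and scaling library sums alike (-0.73, adjusted p = 0.13) also took the first call away. Sesn1KO muscle rose from 56.3, 52.7, 48.5 and 60.5 to 89.9, 83.5, 80.0 and 71.8, all above the basal values (0.57, SE 0.162, adjusted p = 0.0085), and kept the call without any 1 library, though not in a single fit of all 42 libraries (adjusted p = 0.12). Its difference from the WT effect was 0.37 (95% interval -0.11 to 0.84, adjusted p = 0.73). In Sesn2SkM-Tg muscle the basal library that stood apart had 14.9 beside 35.7, 38.7 and 48.0, and the immobilized values were 58.1, 41.6, 40.0 and 49.4 (0.55, SE 0.343, adjusted p = 0.24). Without both basal libraries that stood apart this estimate was 0.20 (adjusted p = 0.65).

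Ddit4, whose product REDD1 inhibits mTORC1 and which responds to stress as well as to glucocorticoids, rose in 3 of 5 immobilized groups and not after denervation. WT muscle of set 1 went from 2.83, 2.19, 6.42 and 4.28 to 6.87, 12.9 and 10.6, without overlap (log2 fold change 1.21, SE 0.364, adjusted p = 0.017). This call was lost without basal replicate 2 (adjusted p = 0.055) or immobilized replicate 2 (adjusted p = 0.076) or 3 (adjusted p = 0.068). Sesn2SkM-Tg muscle rose 2.25-fold, from 7.81, 9.42, 20.6 and 7.97 to 18.8, 27.8, 24.0 and 31.1 (1.17, SE 0.337, adjusted p = 0.012), overlapping through the 1 high basal library. Sesn1KO muscle rose 2.35-fold, from 3.68, 4.89, 5.67 and 7.15 to 18.1, 18.1, 6.39 and 15.9 (1.23, SE 0.315, adjusted p = 0.0038), with 1 immobilized library inside the basal range. Sesn1SkM-Tg muscle had 10.6, 4.24, 3.93 and 3.68 when basal and 16, 6.22 and 9.81 when immobilized, which overlapped through the 1 high basal library (0.84, SE 0.364, adjusted p = 0.077). It was called higher without that library, basal replicate 1 (1.151, adjusted p = 0.019), or without immobilized replicate 2 (1.146, adjusted p = 0.04). In WT muscle of set 2 the values of 10.4, 14, 12.8 and 7.61 against 4.52, 5.74, 6.42 and 9.15 gave 0.72 (SE 0.315, adjusted p = 0.086). Denervated muscle held 4.24, 2.70, 6.19 and 10.2 (-0.21, SE 0.315, adjusted p = 0.59) and lay below immobilized muscle (-0.93, SE 0.315, adjusted p = 0.024). That last call was lost without denervated replicate 1 or 2 or immobilized replicate 2 or 3, with adjusted p up to 0.11.

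Sgk1, a kinase that regulates ion channels and supports muscle mass, was the gene with the full response element printed above. Of the 6 comparisons with basal muscle it passed the test in that of Sesn2SkM-Tg muscle alone, where it rose 1.82-fold, from 124, 80.4, 151 and 99.6 to 190.4, 150.1, 252 and 232 (log2 fold change 0.86, SE 0.192, adjusted p = 0.0019), with 1 basal library just above the lowest immobilized one. WT muscle of set 1 had 154, 179, 178 and 164 when basal and 161, 238 and 153 when immobilized (0.10, 95% interval -0.33 to 0.53). WT muscle of set 2 had 151, 180.0, 156 and 227, then 168, 166, 120.1 and 195 when immobilized (-0.14, 95% interval -0.57 to 0.29) and 192, 169, 238 and 371 when denervated (0.39, SE 0.206, adjusted p = 0.11). Sesn1SkM-Tg muscle had 250.5, 211, 200.0 and 204 when basal and 214, 141 and 144 when immobilized, overlapping by 1 library (-0.40, SE 0.207, adjusted p = 0.14). Without that library, immobilized replicate 1, it was called lower (-0.59, adjusted p = 0.043). Sesn1KO muscle had 162, 146, 198 and 149 when basal and 112, 131, 89.0 and 154 when immobilized, again overlapping by 1 library (-0.45, SE 0.206, adjusted p = 0.094). It too was called lower without that library, immobilized replicate 4 (-0.57, adjusted p = 0.045). Denervated muscle was above immobilized muscle (0.53, SE 0.206, adjusted p = 0.045), a call that was lost without any 1 of 5 of the 8 libraries, down to 0.31 (adjusted p = 0.21) without denervated replicate 4. With library sums scaled alike, denervation raised Sgk1 (0.86, adjusted p = 0.0013).

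Immobilization and denervation, compared directly in the WT muscles of set 2, differed in 6 of the 8 genes, 5 lower in denervated muscle and 1 higher, where 38.9% of all genes were called, 18.4% lower and 20.5% higher. The lower ones were Fkbp5, Klf15, Klf9, Zbtb16 and Ddit4 and the higher one Sgk1, whereas Nr3c1 (-0.18, SE 0.094, adjusted p = 0.13) and Tsc22d3 (-0.45, SE 0.216, adjusted p = 0.11) were not called. Scaling libraries to the same sum gave 3 calls in place of 6, as did leaving out immobilized replicate 2. Denervated libraries also carried less signal from several cell types. Their fast fibre markers summed to 59800 to 79700, against 133000 to 142000 in immobilized and 150000 to 166000 in basal muscle, and 8 of 8 were lower than basal. Markers of adipocytes summed to 67 to 90 against 132 to 207 in basal muscle (6 of 6 lower), and those of endothelium to 151 to 193 against 299 to 377 (5 of 5 lower). The adipocyte sums were mostly Fabp4, which ranged from 65.5 to 233 in the 42 libraries. Of the other adipocyte markers Cfd reached highest, at 22.6. Immobilized muscle had adipocyte sums of 82.2 to 142 and endothelial sums of 175 to 266, both overlapping the denervated ones. Against immobilized muscle, denervated muscle was lower in 8 of 8 fast fibre, 1 of 6 adipocyte (Fabp4) and 2 of 5 endothelial markers. It was also lower in 3 of 6 leukocyte markers (sums of 40.1 to 110 against 99.9 to 192) and in 2 of 5 fibroblast markers (349 to 560 against 503 to 1700). Their part in the result was not tested, and in whole muscle fewer cells of a type and less RNA per cell cannot be told apart.

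Sestrin genotype by itself changed few of these genes. No gene of the 8 was called between Sesn1SkM-Tg and WT muscle, basal (0.0292% of all genes called) or immobilized (0.0073%), or between Sesn1KO and WT muscle, basal (0.147% of all genes called, 0.0587% higher and 0.088% lower) or immobilized (0.947%, 0.528% higher and 0.418% lower). For counts at an unadjusted p under 0.05, here and in the next paragraph, no share of all genes is given. Such counts therefore do not set the 8 genes apart. They were 2, 0, 0 and 4 of 8. The largest of these estimates were 0.70 for Fkbp5 in basal Sesn1SkM-Tg muscle (95% interval 0.16 to 1.25), whose values lay above all WT values, and -0.78 for Klf15 in immobilized Sesn1KO muscle (95% interval -1.36 to -0.21). Sesn2SkM-Tg muscle had 1 of 8 called in each state, where 2.5% of all genes were called in basal muscle (1.5% higher, 1% lower) and 2.94% in immobilized muscle (1.65% higher, 1.29% lower). Basal Sesn2SkM-Tg muscle had 2.47-fold more Ddit4 than WT muscle (log2 fold change 1.30, SE 0.337, adjusted p = 0.039), with all values above those of WT. This call was lost without WT replicate 1 or 2 or Sesn2SkM-Tg replicate 2 or 3, to 1.00 (adjusted p = 0.13) without replicate 3, the library of 20.6, and without both libraries that stood apart (1.41, adjusted p = 0.059). Immobilized Sesn2SkM-Tg muscle had 2.41-fold more Fkbp5 than immobilized WT muscle (1.27, SE 0.283, adjusted p = 0.02), again without overlap, and lost the call without its replicate 2, the library of 110.1 (1.02, adjusted p = 0.052), or without any 1 of the 3 WT libraries (adjusted p from 0.055 to 0.08). Ddit4 was also above WT in every immobilized Sesn2SkM-Tg library but missed the threshold (1.26, SE 0.364, adjusted p = 0.06). Of all genes, 2.71% had no overlap between basal Sesn1SkM-Tg and WT muscle. Between Sesn2SkM-Tg and WT muscle the share was 8.23% when basal and 18.7% when immobilized.

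Whether sestrin transgenes changed the response to immobilization was tested as a difference of effects. None of the 8 was called for Sesn1SkM-Tg against WT (0% of all genes), for Sesn2SkM-Tg against WT (0.0073%) or for Sesn1KO against WT (0.022%, 0.0147% higher and 0.00734% lower), with 2, 3 and 0 of 8 at an unadjusted p under 0.05. The largest of these estimates were for Sesn2SkM-Tg muscle: Zbtb16 at 1.60 (95% interval 0.56 to 2.65, adjusted p = 0.38) and Klf15 at 1.41 (95% interval 0.67 to 2.14, adjusted p = 0.20). The transgenic lines were then set against each other, a comparison added after the data were seen, because 4 genes rose in Sesn2SkM-Tg muscle and none in Sesn1SkM-Tg muscle. The effect in Sesn2SkM-Tg exceeded that in Sesn1SkM-Tg muscle by 1.86 for Zbtb16 (SE 0.504, adjusted p = 0.15), 1.64 for Fkbp5 (SE 0.386, adjusted p = 0.087), 1.32 for Tsc22d3 (SE 0.277, adjusted p = 0.055) and 1.26 for Sgk1 (SE 0.283, adjusted p = 0.07). No gene of the 8 passed (0.109% of all genes did). At an unadjusted p under 0.05 the count was 5 of 8, again without a share of all genes to set it against. Without immobilized Sesn1SkM-Tg replicate 1 all 4 passed, Tsc22d3 at 1.57 (adjusted p = 0.01), Sgk1 at 1.45 (adjusted p = 0.019), Zbtb16 at 2.33 (adjusted p = 0.023) and Fkbp5 at 1.79 (adjusted p = 0.034), so that the comparison depends on that library. Over all genes, 231 passed without that library, against 15 with every library. The comparison was chosen from these same values, so its p-values are not independent evidence. A single gene passed without each of 3 other libraries: Tsc22d3 without basal Sesn1SkM-Tg replicate 4 (1.45, adjusted p = 0.048), Fkbp5 without basal Sesn2SkM-Tg replicate 2 (1.85, adjusted p = 0.045, and 0.042 without both libraries that stood apart) and Sgk1 without immobilized Sesn2SkM-Tg replicate 2 (1.40, adjusted p = 0.035). In the immobilized muscles of these lines, leukocyte markers summed to 130 to 387 in Sesn1SkM-Tg and 83.2 to 244 in Sesn2SkM-Tg muscle, which overlapped. Fibroblast markers summed to 1010 to 3010 and 406 to 894, which did not. No leukocyte or fibroblast marker was called in the difference of effects between the lines. The nearest were Csf1r (-1.897, adjusted p = 0.071) and Col3a1 (-2.255, adjusted p = 0.094). The part of these markers in the result was not tested.

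Other genes known to respond to glucocorticoids were called higher more often than lower in every comparison with basal muscle. Of 24 such genes, 12 were higher and 2 lower in immobilized WT muscle of set 1, 12 and 1 in WT muscle of set 2, 14 and 1 in Sesn2SkM-Tg, 17 and 1 in Sesn1KO and 7 and 2 in Sesn1SkM-Tg muscle, against shares of all genes called higher of 14.9%, 16.2%, 15%, 17.2% and 18.2%. Denervation gave 11 higher and 1 lower, against 27.8% of all genes higher. Their median log2 fold change was 0.51, 0.79, 0.85, 1.17, 0.23 and 0.37 in the same order. Like the lists of the next paragraphs, this list was chosen with earlier results of these data known. A count above the share of all genes is therefore not independent evidence. The list mixes targets that answer to many signals, and the members that moved most do so: the metallothionein Mt2, which binds zinc and responds to metals and inflammation, rose by 5.6, 5.15, 4.59, 4.62 and 4.60 in the 5 immobilized groups in that order and by 3.85 after denervation. Mt1 rose by 3.22 to 4.32 after immobilization, and Lcn2, an iron carrier of the acute phase, by 2.37 to 4.63. The lipase inhibitor Angptl4 rose by 2.68 in Sesn1KO muscle. After denervation the cell cycle inhibitor Cdkn1a rose most, by 3.93, and the muscle ubiquitin ligase Trim63 (MuRF1) rose by 2.32.

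**Figure D3:**
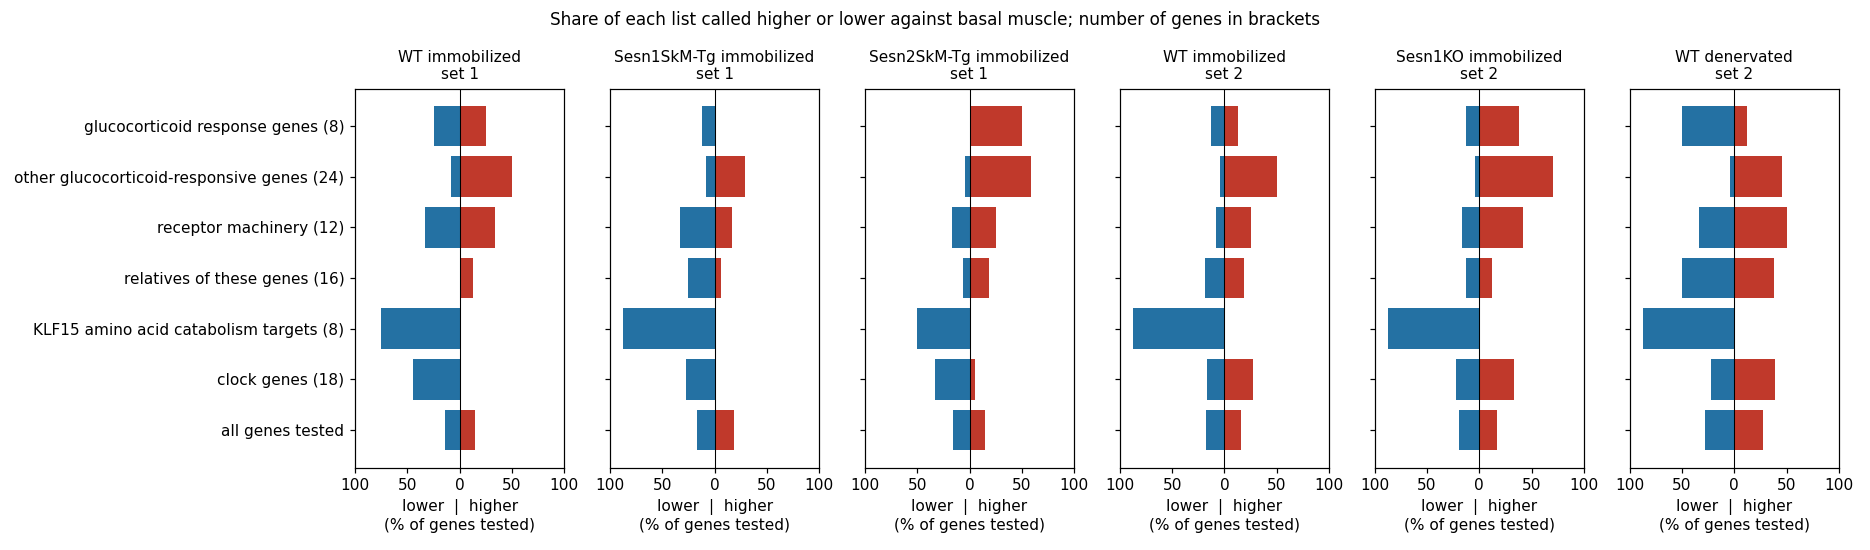
Share of genes called higher (red, right) or lower (blue, left) than basal muscle in each list, with the number of genes tested in brackets and the share over all genes in the bottom row. The other glucocorticoid-responsive genes reach from 7 to 17 of 24 higher, and genes of amino acid breakdown from 4 to 7 of 8 lower with none higher.

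The receptor's chaperones and partners, 12 genes, moved in both directions. Hsp90aa1, the inducible form of the chaperone that holds the receptor ready for hormone, rose by 1.24 in immobilized WT muscle of set 1, 0.64 in set 2, 1.73 in Sesn1KO and 1.84 in denervated muscle. The constitutive Hsp90ab1 rose by 0.55 to 1.08 in set 2 and by 0.62 in Sesn2SkM-Tg muscle. The co-chaperone Ptges3 (p23) rose by 0.71 in Sesn2SkM-Tg muscle. Its mean was above basal in every disused group, for example 88.3 after denervation against 44.9. The receptor partner Fkbp4 fell in WT muscle of set 2 by 0.54 on the log2 scale. Its mean was below basal in every disused group, for example 88.4 in immobilized Sesn1KO muscle against 133. Hsd11b1, the enzyme that regenerates active hormone inside cells, rose by 1.03 in WT, 1.34 in Sesn1SkM-Tg and 0.70 in Sesn2SkM-Tg muscle of set 1, and had log2 fold changes of 0.09, -0.65 and -0.37 that did not pass in immobilized WT, immobilized Sesn1KO and denervated muscle of set 2. Nr3c2, the mineralocorticoid receptor that also binds glucocorticoids, fell with denervation by 1.11 and in immobilized WT muscle of set 1 by 0.81. The coactivator Ncoa1 and the corepressor Ncor1 decreased by 0.86 and 0.61 in Sesn1SkM-Tg muscle. Mean Ncoa1 was below basal in every other disused group as well. Mean Ncor1 was below basal in the other groups of set 1 and after denervation, but not in immobilized muscle of set 2. In all, 4 were higher and 4 lower in WT muscle of set 1, 2 and 4 in Sesn1SkM-Tg, 3 and 2 in Sesn2SkM-Tg, 3 and 1 in WT muscle of set 2, 5 and 2 in Sesn1KO and 6 and 4 in denervated muscle. In the same order, 14.9%, 18.2%, 15%, 16.2%, 17.2% and 27.8% of all genes were higher and 14.5%, 16.5%, 15.7%, 17.7%, 19.9% and 27.7% lower.

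Genes of amino acid breakdown that KLF15 is known to activate were called lower in every comparison with basal muscle. Of 8 such genes none rose, and 6 fell in immobilized WT muscle of set 1, 7 in set 2, 7 in Sesn1SkM-Tg, 4 in Sesn2SkM-Tg, 7 in Sesn1KO and 7 in denervated muscle, where 14.5%, 17.7%, 16.5%, 15.7%, 19.9% and 27.7% of all genes were lower. Their median log2 fold change ran from -0.51 in Sesn2SkM-Tg to -0.95 in denervated muscle. The transaminases led: Got1 fell with denervation by 1.82, Gpt by 1.60 and Gpt2 by 1.34, and with immobilization Got1 fell by 1.36 in WT muscle of set 1 and Gpt2 decreased by 1.72 in Sesn1SkM-Tg, by 1.01 in WT of set 2 and by 0.91 in Sesn2SkM-Tg muscle. Klf15 itself was called lower in the first of these groups alone, with estimates of -0.86, 0.47, -0.57, 0.55, 0.11 and -0.39 in the order of the counts above.

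Relatives of the genes in the same families followed their own courses. Of 16 (Krüppel-like factors, TSC22 proteins, Sgk3 and Ddit4l), 2 were higher and none lower in immobilized WT muscle of set 1, 3 and 3 in set 2, 1 and 4 in Sesn1SkM-Tg, 3 and 1 in Sesn2SkM-Tg and 2 and 2 in Sesn1KO muscle, with 6 and 8 after denervation. In that order, the shares of all genes called in either direction were 29.3%, 33.9%, 34.7%, 30.7%, 37.1% and 55.5%. Ddit4l (REDD2), the paralog of Ddit4 and likewise an mTORC1 inhibitor, was never called higher. It fell by 1.84 in immobilized WT muscle of set 2, by 2.22 in Sesn1KO, by 1.35 in Sesn1SkM-Tg and by 1.18 in Sesn2SkM-Tg muscle, and decreased by 2.31 after denervation. Klf10, an early TGF-beta response gene, rose by 1.94 after denervation and by 1.37 in immobilized WT muscle of set 2, and Klf4, found in vessels among other places, decreased by 1.24 after denervation.

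The clock, which glucocorticoids help to set and whose output includes rhythmic Klf9 and Klf15, differed between the sets. Of 18 clock genes none rose and 8 fell in immobilized WT muscle of set 1, while 5 rose and 3 fell in that of set 2. Of all genes, 14.9% rose and 14.5% fell in the first and 16.2% rose and 17.7% fell in the second. In set 1, Dbp fell by 1.56, Bhlhe41 by 1.53 and Bhlhe40 by 1.34, and in set 2 Per1, which is also among the 24 glucocorticoid-responsive genes, rose by 1.81, Cry2 by 1.03 and Ciart by 1.00. Per1 had a log2 fold change of -0.05 in WT muscle of set 1. Tested as a difference of effects between the sets, 6 of 18 clock genes were lower in set 1 and none higher (3.16% and 3.04% of all genes), with a median difference of -0.69, beside the Klf15 difference of -1.32. The hour at which muscles were taken is not given in the sources used here, and its part in the result was not tested. Leukocyte markers, summed over 6 genes, rose from 33.9 to 50.5 in basal to 162 to 352 in immobilized WT muscle of set 1 (6 of 6 higher), and from 27.1 to 126 to 99.9 to 192 in set 2 (3 of 6 higher), and none of the 6 was called in the difference between the sets. Endothelial markers, summed over 5 genes, went from 187 to 257 in basal to 242 to 282 in immobilized WT muscle of set 1, and from 299 to 377 to 175 to 266 in set 2. In set 1 Pecam1 (0.74) and Tek (0.48) were called higher but Kdr lower (-0.72, adjusted p = 0.033), and in set 2 every one was called lower. In the difference between the sets 4 of 5 endothelial markers were higher in set 1, Pecam1 by 1.23 (adjusted p = 9.5e-04) and Tek by 1.09 (adjusted p = 0.0032) among them. The same held for 1 of 6 adipocyte markers (Fabp4, 1.44, adjusted p = 0.0011), 1 of 5 fibroblast and 2 of 4 Schwann cell markers. Fabp4 went against its list in immobilized WT muscle of set 1. It rose by 0.91 there, whereas the other adipocyte markers had estimates from -0.49 to -0.88, none of them called. The part of these markers in the differences between the sets was not tested.

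Within a group, libraries that were high in 1 of these genes tended to be high in others. After the group mean was removed, 10 of 28 pairs correlated over the 42 libraries at an adjusted permutation p under 0.05, all positively. The share of correlated pairs among other genes is not given here, so the count does not set these pairs apart. The closest was Nr3c1 with Klf9, at Pearson's r = 0.709 (permutation p = 0.00027, adjusted p = 0.0038) and Spearman's rho = 0.686 (permutation p = 0.00018, adjusted p = 0.005), and r = 0.604 without the 2 libraries farthest from the median. That pair rested on set 1, with r = 0.848 there and 0.06 in set 2. The 2 basal libraries of set 1 that stood apart were the lowest of their groups in both genes. WT replicate 4 had 41.6 for Nr3c1 and 83.0 for Klf9, and Sesn2SkM-Tg replicate 2 had 39.3 and 47.0. Klf9 entered 5 of the 10 pairs, and Tsc22d3 and Sgk1 entered 4 each. Tsc22d3 correlated with Klf9 (r = 0.611, rho = 0.587, permutation p = 0.0002 and 0.00047, adjusted p = 0.0038 and 0.006), and r = 0.594 without the 2 farthest libraries. It also correlated with Ddit4 (r = 0.58, rho = 0.578, adjusted permutation p = 0.012 and 0.006), Sgk1 (r = 0.57, rho = 0.519, adjusted permutation p = 0.012 and 0.023) and Zbtb16 (r = 0.488, rho = 0.427, adjusted permutation p = 0.023 and 0.043). Without the 2 farthest libraries those r were 0.523, 0.51 and 0.558. Tsc22d3 with Klf9 held a similar size in each set (0.571 and 0.75), as did Tsc22d3 with Sgk1 (0.542 and 0.592) and Ddit4 with Sgk1 (0.546 and 0.611). Taken within a set, 1 pair passed in set 1 and none in set 2. Fkbp5 was in none of the 10 pairs and had coefficients of -0.293 to 0.315. These points share library preparation and scaling, and median centring of the libraries left the count at 10.

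**Figure D4:**
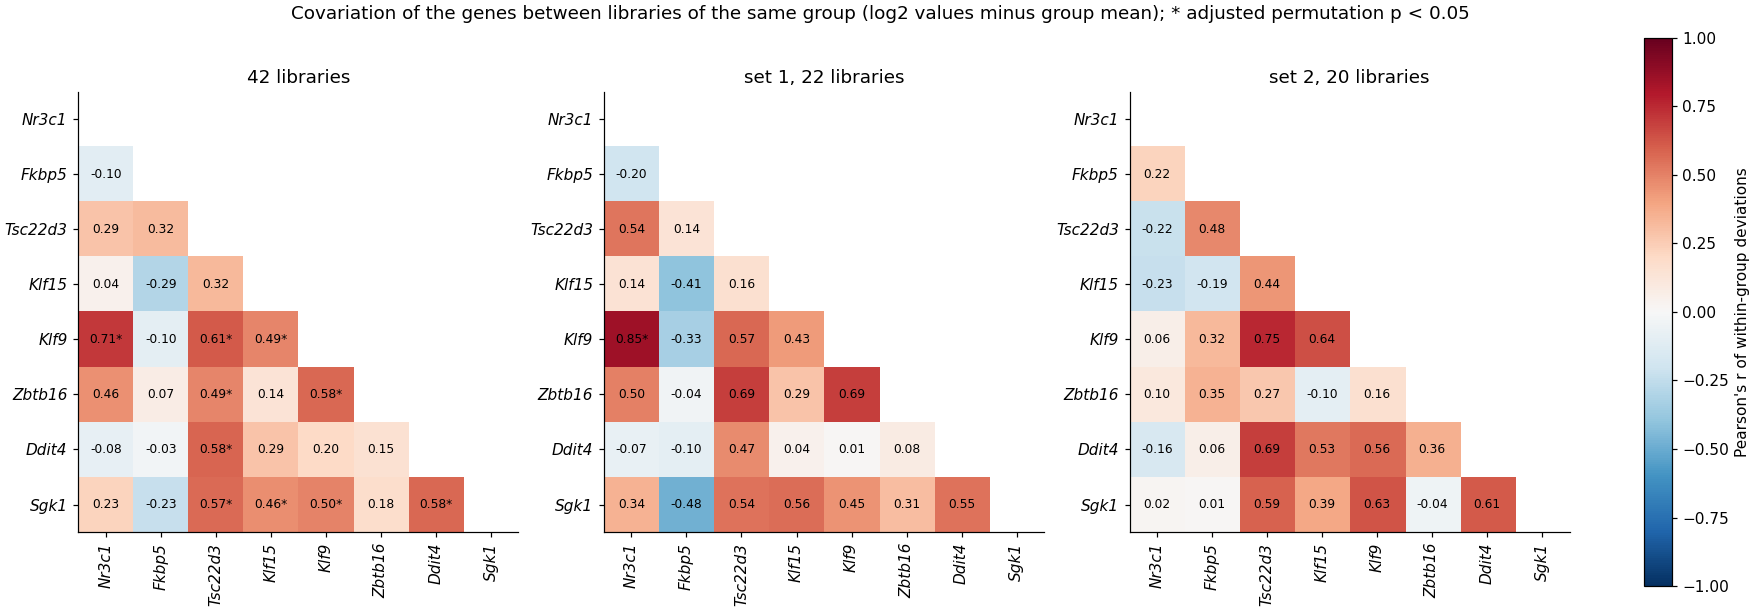
Pearson's r between pairs of genes of the log2 values after removal of group means, over all 42 libraries, the 22 of set 1 and the 20 of set 2. Stars mark adjusted permutation p under 0.05: 10 pairs over all libraries, 1 in set 1 and none in set 2, with the row and column of Fkbp5 free of stars.

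The genes whose pattern over the 42 libraries was most like each of the 8, by Pearson's r of log2 values after removal of the mean of the set, differed from gene to gene, and no 2 of the 8 shared one of their nearest 3. Zbtb16 lay closest to Clic5 (r = 0.919), 2310002L09Rik (0.87) and Fhod3 (0.845), and Nr3c1 to Ranbp6 (0.915), Tnks2 (0.906) and Col4a3bp (0.904). Klf9 was nearest to Rere (0.884), Vezf1 (0.844) and March6 (0.821), and Tsc22d3 to Rabgef1 (0.866), Morf4l1 (0.845) and Slc15a4 (0.83). Ddit4 was nearest to Cebpd (0.862), Nfkbia (0.816) and Mcl1 (0.785), the first 2 of which are among the 24 glucocorticoid-responsive genes. Fkbp5 was nearest to Trim72 (0.811) and Pdlim5 (0.81), and Klf15 to Pik3ip1 (0.768), Cth (0.682) and Stat5b (0.67). Sgk1 had the loosest company, with Ypel2 at 0.637, Slc16a9 at 0.634 and Creg1 at 0.602.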

How the data were processed

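RNA from TA muscle was measured by RNAseq in 42 libraries. Per the paper's methods and the submitters' processing notes, the authors checked reads with FastQC, trimmed them with Cutadapt 1.7.1, estimated gene abundance with RSEM 1.2.20 on the GRCm38 transcriptome and normalized with limma (edgeR is also named). The library kit does not mark strand. The deposited values are normalized counts, a linear signal and not raw counts, so depth and counting error are unknown. How the sets were combined is not given in the sources used here, and levels were compared only within a set.

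From these values log2(value + 1) was fitted with limma 3.58.1 in R 4.3.3 (all groups of a set, eBayes with trend, two-sided), keeping genes that reached 1 in any library of the set (13705 genes in set 1, 13629 in set 2 and 13763 for both). The fits were tested on simulated data. Positions and lengths are from GENCODE vM21 (GRCm38), where no exon of the 8 genes overlaps an exon of another gene, and promoter windows from RefSeq. Correlations used 100000 permutations within groups. Alternatives covered filters, pseudocounts, scalings, eBayes settings, the libraries in the fit, a replicate block, fold thresholds and left-out libraries. The effect comparison between transgenic lines and the removal of a pair of libraries together were added after the data were seen. The members and lists were chosen with earlier results of these data known. From each list the called genes with the 3 largest changes in a comparison were named, with values of these genes in other comparisons added after they were seen. Hif3a, Klf8, Sgk2 and Adgre1, fixed in the lists, are not analysed here. For Fkbp5, 1 gene of similar pattern is not reported here.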

Additional observations from a re-analysis of the deposited data

Results flagged for a closer look

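In 72 groups of 4 libraries (8 genes in 9 groups), 8 single values lay so far from the other 3 that the gap divided by the range exceeded Dixon's 95% limit for 4 values, which chance alone exceeds in about 1 group in 20. Low values were Nr3c1 at 57.15 in immobilized Sesn1KO replicate 4, Nr3c1 at 39.34 in basal Sesn2SkM-Tg replicate 2 and Klf15 at 18.26 in immobilized Sesn2SkM-Tg replicate 2. High values were Fkbp5 at 110.1 in immobilized Sesn2SkM-Tg replicate 2, Klf15 at 69.89 and Klf9 at 151.9, both in immobilized WT replicate 2 of set 2, Ddit4 at 10.59 in basal Sesn1SkM-Tg replicate 1 and Ddit4 at 20.63 in basal Sesn2SkM-Tg replicate 3. The immobilization effect on Klf15 in WT muscle differed between the sets by -1.321 on the log2 scale (limma, adjusted p = 0.04).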

How the results depend on the processing

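Of 144 values of the 8 genes, 29 were called, and over 12 alternative settings (1720 values) 24 lost and 23 gained a call and none of the called values changed direction. With 1 library or a pair left out (1456 values), 50 lost and 34 gained a call, again with no called value turning. Counts of genes called moved as follows. Quantile normalization gave 0 in place of 1 for Sesn2SkM-Tg against WT basal muscle and for the difference between sets. Scaling all libraries to the same sum gave 2 in place of 1 for immobilized Sesn1SkM-Tg muscle, 3 in place of 6 for denervation against immobilization and 0 in place of 1 for the difference between sets. It moved the median of all genes by 0.28 in WT muscle of set 1, 0.25 in Sesn1SkM-Tg, 0.26 in Sesn2SkM-Tg and 0.35 after denervation. When the fit held the compared groups alone, immobilized Sesn1SkM-Tg muscle had 2, basal Sesn2SkM-Tg against WT 0 and immobilized Sesn2SkM-Tg against WT 2. With all 42 libraries in 1 fit the first and last of these had 2 each, and the difference between transgenic lines 4 in place of 0. A log2 fold change of at least 1 left 2 of 4 in WT muscle of set 1, 1 of 2 in WT of set 2, 1 of 4 in Sesn1KO, 2 of 5 after denervation and 2 of 6 between denervation and immobilization. Within a set, correlated pairs numbered 1 in set 1 and 0 in set 2 in place of 10. A stricter fold threshold can only remove calls. For the other settings the cause of the change was not tested.

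With a replicate block the difference between sets had 0 genes called in place of 1, and basal Sesn2SkM-Tg against WT had Klf15 (-0.86, adjusted p = 0.044) in place of Ddit4 (adjusted p = 0.056). Klf9 in WT muscle of set 1 (adjusted p = 0.032) and Fkbp5 in Sesn1KO muscle (adjusted p = 0.045) gained a call. Replicate numbers did not pair the libraries: correlations of same-numbered libraries ran from -0.452 to 0.534, and no comparison had all pairs over 0.1.

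Leaving out libraries gave counts of 1 to 6 in immobilized WT muscle of set 1 (4 with all), 0 to 3 in Sesn1SkM-Tg (1), 3 to 6 for denervation against immobilization (6), 0 to 2 in basal (1) and 0 to 1 in immobilized Sesn2SkM-Tg against WT (1), 0 to 1 in immobilized Sesn1KO against WT (0), 0 to 4 for the difference between transgenic lines (0) and 0 to 3 for that between sets (1).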
